A study of Mus musculus with 2 samples.

Results

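γδT cells of the mouse liver were taken from 2 single-cell RNA-Seq libraries as barcodes with transcripts of the T cell receptor δ chain and of CD3 but none of the α chain. A unique molecular identifier (UMI) marks 1 captured transcript. The members were chosen by their UMIs of *Trdc*, the CD3 genes and *Trac*: a barcode was a member when it held at least 1500 UMIs with under 10% of them from mitochondrial genes, at least 2 UMIs of *Trdc*, at least 2 UMIs of *Cd3d*, *Cd3e* and *Cd3g* together, and 0 UMIs of *Trac*. The rule found 332 cells among the 16052 barcodes that passed the UMI and mitochondrial limits (called cells), of which 194 of 9002 were vehicle and 138 of 7050 antibiotic cells. The libraries were CD45+ leukocytes, sorted by FACS from the livers of female mice aged 6 weeks, and were made with the Chromium 3′ kit. The vehicle mice served as the control, and the antibiotic mice drank metronidazole and ampicillin at 1 mg/mL each with neomycin and vancomycin at 0.5 mg/mL each for 1 week. The sources used here tie neither a strain nor a number of mice to either library. With 1 library per condition there was no test, and treatment, mice, capture and library cannot be told apart. Ranges in brackets are 95% intervals, Clopper-Pearson for shares and exact conditional Poisson for ratios of counts, and they cover counting error only.

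γδT cells carry a receptor made of a γ and a δ chain in place of the α and β chains of most T cells. Many respond without presentation of peptide by MHC molecules, and in mice they fall broadly into cells that make IFN-γ and share killing machinery with NK cells and cells that make IL-17. The liver holds both kinds among its resident lymphocytes. Expression below is given as CPM, the UMIs of a gene among every 1000000 UMIs that the cells of a class held together in 1 library, and comparisons were made with 2 classes of the same libraries. The αβT cells met the mirror rule (at least 2 *Trac* UMIs, no *Trdc*, CD3 as above), with 3999 vehicle and 4387 antibiotic cells. The NK cells had no CD3 and no *Trac* UMI, no B cell UMI of *Cd79a* or *Cd79b* and at least 2 UMIs of *Ncr1* and *Klrb1c*, with 160 and 83 cells. B cells held at least 2 UMIs of *Cd79a* and *Cd79b* and no CD3 UMI, and serve as background.

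The label was checked against its marker genes. *Trdc*, which the rule used, had a median of 7 UMIs per cell in vehicle and 5 in antibiotic members, with highest values of 31 and 22. *Cd3e*, a signaling chain of the receptor complex and part of the CD3 sum, was seen in 84.5% and 80.4% of the cells. Transcripts of a γ chain constant gene, which the rule did not use, were seen in 191 of 194 cells (98.5% [95.5 to 99.7]) and in 127 of 138 (92.0% [86.2 to 96.0]). Nearly all members thus held this marker. At 2 or more UMIs the shares were 89.7% and 80.4%. The γ constant genes were not confined to these cells. They had a UMI in 51.0% and 49.0% of αβT cells, in 24.4% and 20.5% of NK cells, and in 4.73% and 2.82% of B cells, which should lack them. *Trdc* itself had a UMI in 34 of 160 vehicle and 12 of 83 antibiotic NK cells. The median depths were 3608.5 and 2963 UMIs in γδT cells, 4199 and 3646 in αβT cells, 2866.5 and 2453 in NK cells, and 2499 and 2129 in B cells. Transcripts of the β chain were also widespread, and only 6 vehicle and 12 antibiotic members held none of *Trbc1* and *Trbc2*.

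The γ chain is encoded by several clusters on mouse chromosome 13, each with its own constant gene. The first bases of exon 1 of the 3 constant genes seen most often in the members are shown as an example of how alike these genes are. The 3′ reads fall near the other end of the transcripts, for which shared stretches are given below. Capitals mark the 15 positions at which the 3 genes are not all alike (GENCODE vM21 on GRCm38; each 120 bases of an exon of 330, in the direction of the gene; *Tcrg-C1* chr13:19214103-19214222 on the + strand, *Tcrg-C2* chr13:19307432-19307551 on the − strand, *Tcrg-C4* chr13:19344558-19344677 on the + strand).
Tcrg-C1: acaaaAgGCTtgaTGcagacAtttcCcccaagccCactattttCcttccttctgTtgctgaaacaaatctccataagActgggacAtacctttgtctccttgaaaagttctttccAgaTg
Tcrg-C2: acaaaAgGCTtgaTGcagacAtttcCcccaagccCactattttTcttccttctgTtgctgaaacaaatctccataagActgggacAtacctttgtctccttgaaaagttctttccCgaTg
Tcrg-C4: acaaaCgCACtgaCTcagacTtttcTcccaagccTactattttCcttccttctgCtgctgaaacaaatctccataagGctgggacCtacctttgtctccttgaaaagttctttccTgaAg
Over the whole exon, *Tcrg-C1* and *Tcrg-C2* were 97.3% identical (9 of 330 bases differed), and *Tcrg-C4* was 82.1% and 81.5% identical to them. In the last 500 bases of the *Tcrg-C1* transcript, where 3′ reads fall, 131 of 451 windows of 50 bases (29.0%) were also found in *Tcrg-C2* and 0 in *Tcrg-C4*. The treatment of reads that fit both *Tcrg-C1* and *Tcrg-C2* was not given in the sources used here, so the split between these 2 genes is uncertain.

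Most members held transcripts of more than 1 γ constant gene. *Tcrg-C1* had a UMI in 64.4% of the vehicle members and 63.0% of the antibiotic members, *Tcrg-C2* in 75.8% and 56.5%, and *Tcrg-C4* in 77.3% and 63.0%, while *Tcrg-C3* was seen in 4 cells and 0 cells. All of *Tcrg-C1*, *Tcrg-C2* and *Tcrg-C4* were seen in 73 of 194 and 34 of 138 members, and none of them in 3 and 11. The bar plot of γ constant genes gives the other combinations, which ran from 7 cells (*Tcrg-C1* alone) to 40 (*Tcrg-C2* with *Tcrg-C4*) in the vehicle library and from 10 (*Tcrg-C4* alone) to 25 (*Tcrg-C1* with *Tcrg-C4*) in the antibiotic library. A cell expresses 1 γ chain at its surface as a rule, and transcripts of a constant gene do not show which chain that is.

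**Figure D1:**
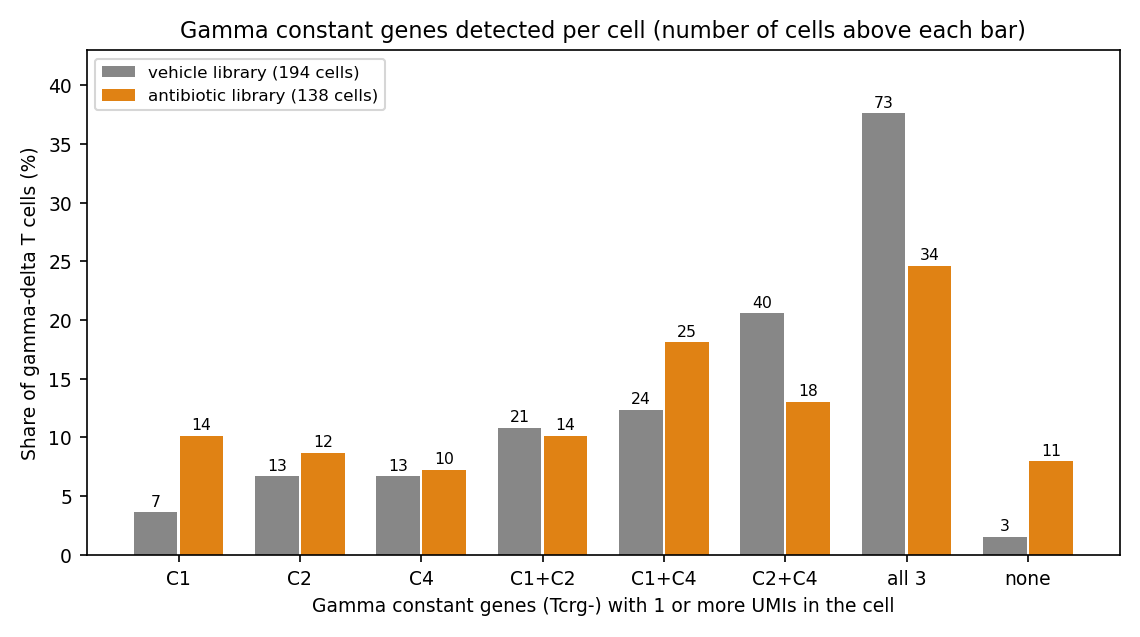
Share of γδT cells of each library (y axis, %) by the γ constant genes with at least 1 UMI in the cell (x axis), with the number of cells above each bar. The combination of all 3 genes was the most frequent in both libraries, with 73 of 194 vehicle and 34 of 138 antibiotic cells.

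Variable segments, which give a receptor its specificity, were read rarely, and the kit reads transcripts from their 3′ end. The 9 *Trav15* (δ6) genes together, used by δ chains of innate-like γδT cells among others, had a UMI in 10 of 194 vehicle members (5.15% [2.50 to 9.28]) and in 18 of 138 antibiotic members (13.04% [7.92 to 19.8]). The ratio of the shares was 2.53 [1.11 to 6.14]. In αβT cells it had a UMI in 3 of 3999 and 10 of 4387. *Trdv2-2* was seen in 8 and 9 members, *Trdv5* in 7 and 3, *Trdv1* in 5 and 0, and *Trdv4* in 3 and 2. *Tcrg-V4* was seen in 6 and 5 members, and *Tcrg-V6*, of the γ chain typical of IL-17-producing cells, in 0 and 1. Among the members with a *Trav15* UMI, *Klrb1c* (NK1.1) was seen in 7 of 10 and 10 of 18, *Il7r* in 3 and 13, and *Gzma* in 2 and 1. These counts are too small to set the segments apart from each other.

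The cells nearest the limits of the rule differed in these markers. Members with exactly 2 *Trdc* UMIs were 11 vehicle and 27 antibiotic cells, of which 81.8% and 88.9% held a γ constant UMI. Cells with exactly 1 *Trdc* UMI that otherwise met the rule were 30 and 21, of which 70.0% and 71.4% did. Cells with at least 2 *Trdc* UMIs and exactly 1 *Trac* UMI were 41 and 35, with a γ constant UMI in 95.1% and 88.6%, and those with 2 or more *Trac* UMIs were 44 and 30 with a median of 5621.5 and 4868.5 UMIs. The last were deeper than the members. The share of members with *Gzma* also varied with the *Trdc* count. *Gzma* was seen in 45.5% of vehicle members with exactly 2 *Trdc* UMIs, in 44.7% of those with 3 to 5 and in 27.2% of those with 6 or more, and in 22.2%, 9.80% and 10.0% of antibiotic members. Cells with *Trdc* but 0 or 1 CD3 UMI were 12 and 4, and *Ncr1* was seen in 12 and 2 of them.

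γδT cells made up 2.16% [1.87 to 2.48] of called cells in the vehicle library and 1.96% [1.65 to 2.31] in the antibiotic library. The ratio of antibiotic over vehicle was 0.908 [0.725 to 1.14], so no difference was detectable in this share at this depth. Of the cells with at least 2 CD3 UMIs they were 3.66% [3.17 to 4.20] and 2.53% [2.13 to 2.98], a ratio of 0.692 [0.552 to 0.865]. The denominators moved between the libraries, since αβT cells were 44.4% and 62.2% of called cells, B cells 26.3% and 15.6%, and NK cells 1.78% and 1.18%. No barcode of a member occurred in both libraries, and 93 called cells shared a barcode sequence, against 86.1 for random draws from the kit's barcodes.

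B cell transcripts and the doublet calls moved with the library. At least 2 UMIs of the B cell receptor genes *Cd79a* and *Cd79b* were seen in 31 of 194 vehicle members (16.0%) and in 5 of 138 antibiotic members (3.62%), and Scrublet scored 17 and 1 members as doublets. All of these cells were kept. Scrublet set its score limit in each library by itself, at 0.225 in the vehicle and 0.313 in the antibiotic library. It scored 4.44% and 2% of all called cells as doublets, so the counts of members were not taken at a common limit. The 13 B cell genes summed to 4837 CPM in vehicle and 2574 CPM in antibiotic γδT cells, against 4503 and 2384 CPM in αβT cells. Levels in γδT and αβT cells of a library were thus close. When the members with B cell transcripts were left out, a choice made once the data had been seen, the ratio of the shares of called cells was 1.04.

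The γδT cells stood between αβT cells and NK cells in the genes of the NK program. Among 9802 genes with at least 30 UMIs in γδT and αβT cells together in each library, 150 (1.53%) were at least 2-fold higher in γδT cells in both libraries and 187 (1.91%) at least 2-fold lower. Of the 25 measured genes of the list of NK receptors and adaptors, 17 were past 2-fold higher in both libraries and 0 lower, with medians of 3.31-fold in vehicle and 2.87-fold in antibiotic cells, against 1.06 and 1.09 over all genes. In the vehicle library by itself 4.71% of genes were past 2-fold higher and 6.19% lower, and in the antibiotic library 5.8% and 9.69%. When at least 10 UMIs were also expected in the γδT cells, a minimum set once the data had been seen, the counts over all genes were 25 and 18 of 4307.

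The signaling adaptors of NK receptors were far above their level in αβT cells. *Fcer1g*, the common γ chain of Fc receptors and natural cytotoxicity receptors, had 1506 CPM in vehicle γδT cells against 153 in αβT cells (9.86-fold [9.19 to 10.6]) and 475 against 46.0 in the antibiotic library (10.3-fold [8.82 to 12.1]). *Tyrobp*, which encodes the adaptor DAP12, was 7.54-fold and 6.37-fold higher. Most of the receptors themselves went the same way. Of the 25 measured genes of the list, adaptors included, 23 were higher in the vehicle and 21 in the antibiotic library. *Klrb1c* (NK1.1) was not among those past 2-fold higher in both. *Ncr1* (NKp46) was 10.2-fold and 21.2-fold higher, *Cd244* (2B4) 12.7-fold and 10.2-fold, *Klre1* 5.19-fold and 4.80-fold, and *Klrc1* (NKG2A) 4.60-fold and 3.62-fold. *Cd160* was 2.47-fold and 2.46-fold higher, and *Klrk1* (NKG2D) 2.64-fold and 2.65-fold. *Cd7* was 6.68-fold and 4.54-fold higher.

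*Klra5*, a receptor of the Ly49 family, was seen in a larger share of γδT cells than of the other classes. It had 207 CPM in vehicle γδT cells and 56.2 CPM in antibiotic γδT cells, against 7.35 and 3.17 CPM in αβT cells (28.2-fold [22.3 to 35.7] and 17.7-fold [10.5 to 29.1]). To compare shares of cells across depths, each cell was thinned to 1500 UMIs. *Klra5* was then seen in 17.5% [12.5 to 23.6] of vehicle and 5.07% of antibiotic γδT cells. In NK cells the shares were 0% (0 of 160, with an upper bound of 2.28%) and 1.20%, in αβT cells 0.750% and 0.365%, and in B cells 0.127% and 0%. The intervals of γδT and NK cells overlapped in the antibiotic library, so a difference between these classes was not detectable there. At full depth 47 of 194 and 7 of 138 γδT cells held it. The Ly49 genes are close copies of each other, so the split of reads among them is uncertain.

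**Figure D2:**
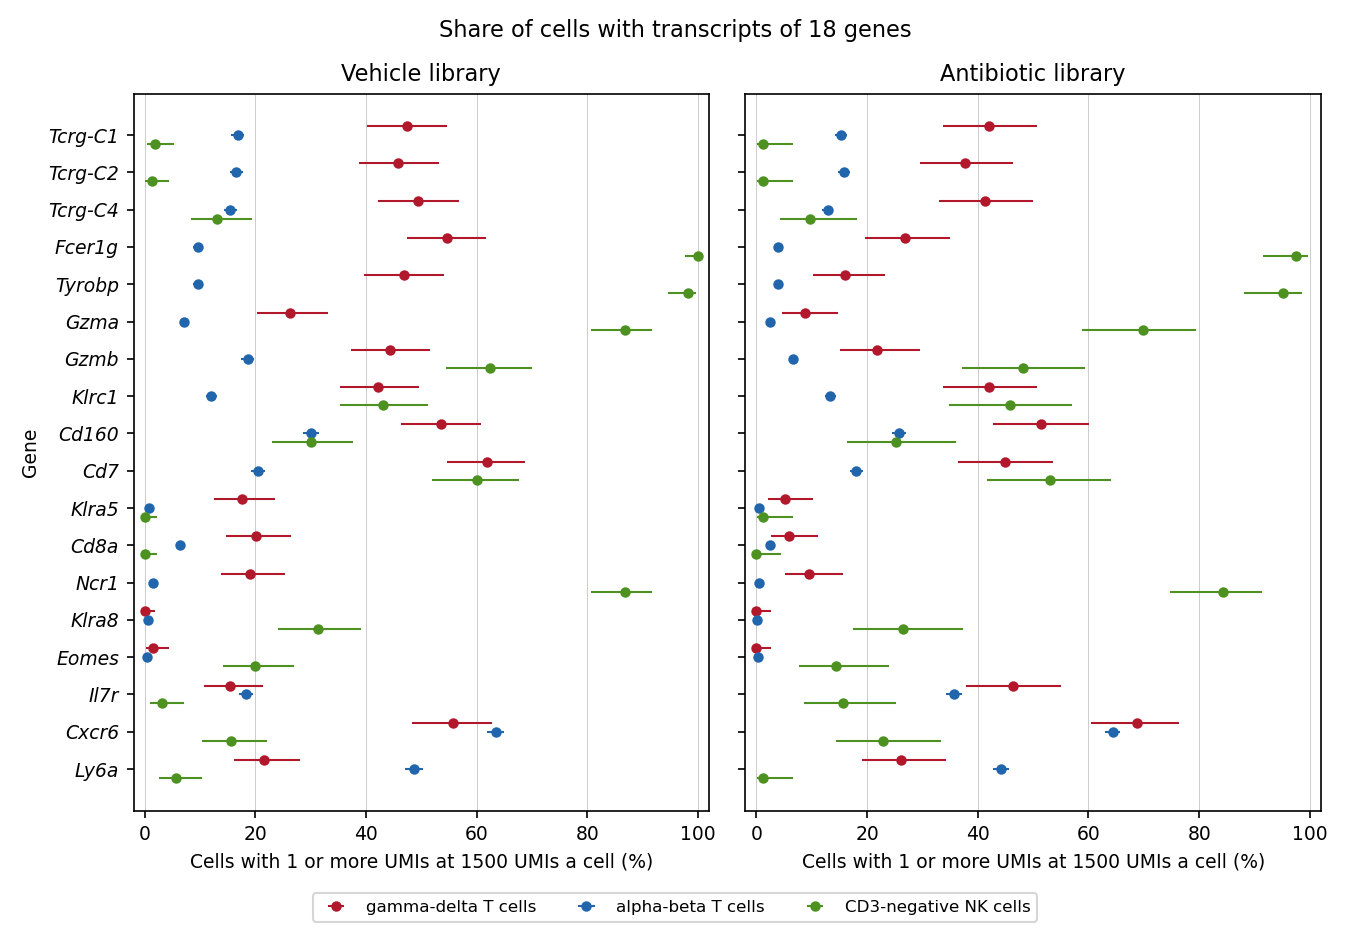
Share of cells with at least 1 UMI of 18 genes after thinning each cell to 1500 UMIs (x axis, %), in γδT, αβT and NK cells of the vehicle library (left) and the antibiotic library (right), with 95% Clopper-Pearson intervals. *Klra5* and *Cd8a* were most frequent in γδT cells, *Klra8* and *Eomes* in NK cells, and *Ncr1* was among the genes that defined the NK cells.

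Granule and chemokine genes were also higher in γδT than in αβT cells. *Gzma*, a granule protease, had 1704 against 213 CPM in the vehicle library (7.99-fold) and 374 against 61.0 CPM in the antibiotic library (6.13-fold). *Gzmb*, the protease that activates caspases in target cells, was 4.77-fold and 4.89-fold higher, and *Cst7* 2.67-fold and 2.07-fold. Of 18 measured granule and killing genes, 3 were past 2-fold higher in both libraries and 1 lower. Among the chemokines, *Ccl5* was 3.47-fold and 2.37-fold higher, *Ccl4* 5.14-fold and 10.4-fold, *Ccl3* 4.56-fold and 16.2-fold, and *Xcl1*, which attracts cross-presenting dendritic cells, 3.73-fold and 2.68-fold. *Ccl4* was seen in few antibiotic members, 6 with *Gzma* and 12 without it. A single antibiotic member held 23 *Ccl4* UMIs, and no other held more than 4, so its antibiotic ratio does not describe most of these cells. Of 19 type 1 genes, 4 were past 2-fold higher in both libraries and 0 lower. Of 11 measured genes of the type 17 list, 3 were past 2-fold higher in both libraries and 0 lower, with medians of 1.43-fold and 1.68-fold. These were *Cd163l1* (29.2-fold and 13.8-fold), *Serpinb1a* (2.97-fold and 2.55-fold) and *Blk* (3.13-fold and 3.06-fold, on 16 and 4 UMIs), the last named after its values had been seen. Most of the *Cd163l1* UMIs of members came from few cells, as given with the IL-17 cytokines below.

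Coreceptors and receptor chains set the classes apart in the other direction. *Cd4* had 2 UMIs in the vehicle and 2 in the antibiotic γδT cells, 0.0441-fold [0.00533 to 0.160] and 0.102-fold [0.0124 to 0.370] the level of αβT cells. *Cd8b1*, the β chain of the CD8 heterodimer, was 0.266-fold and 0.249-fold, while *Cd8a* was 3.81-fold and 2.91-fold higher. *Cd8a* without *Cd8b1* was seen in 52 of 194 vehicle members and in 11 of 138 antibiotic members. *Trav11*, the α chain segment of invariant NKT cells, had 0 UMIs in the γδT cells of both libraries and 415 and 776 UMIs in the αβT cells, at least 5.40-fold and 6.26-fold lower when the floor of 3 counts in the γδT cells of a library is used. *Trav11* is carried on *Trac* transcripts, which the rules of both classes used, so this difference is a description. *Trbc1* was 0.435-fold and 0.670-fold and *Trbc2* 0.666-fold and 0.628-fold. The γ constant genes were 2.68-fold to 4.37-fold higher in γδT cells, with *Tcrg-C1* at 3.14-fold and 3.07-fold, *Tcrg-C2* at 2.96-fold and 2.68-fold and *Tcrg-C4* at 3.79-fold and 4.37-fold. *Cd5* and *Cd6*, receptors that damp αβ receptor signaling, were 0.271-fold and 0.320-fold and 0.246-fold and 0.453-fold. *Syk*, a kinase that pairs with the NK adaptors, was 2.42-fold and 5.01-fold higher, on 17 and 8 UMIs.

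Regulator and residency genes were mixed, and more cell cycle genes were lower than higher, many on few UMIs. *Il4*, the cytokine made by NKT cells, was 0.311-fold and 0.395-fold, and of 15 measured innate-like T cell regulators 0 were past 2-fold higher and 1 lower in both libraries. *Il7r*, the IL-7 receptor of long-lived lymphocytes, was 1.14-fold and 1.49-fold. Residency genes were mixed, with *Itga1* (CD49a) 2.47-fold and 3.11-fold higher and the homing receptor of liver sinusoids *Cxcr6* 0.886-fold and 1.08-fold. *S100a6* was 3.39-fold and 2.57-fold higher and *S100a4* 3.19-fold and 2.55-fold. Of 16 cell cycle genes, 15 were lower in the vehicle and 13 in the antibiotic library, with median ratios of 0.421 and 0.929. Past 2-fold lower in both libraries were 6, and of these only *Stmn1* had intervals off 1 in both. The γδT cells held 738194 and 427423 UMIs in all, against 18913871 and 17666600 in αβT cells. Genes with few UMIs can thus pass 2-fold lower by counting error.

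Against NK cells, 43 of 2764 measured genes (1.56%) were at least 2-fold higher in γδT cells in both libraries and 55 (1.99%) at least 2-fold lower. In the vehicle library by itself the shares were 2.82% and 2.93%, and in the antibiotic library 3.73% and 4.41%. Of 21 measured NK receptors and adaptors, 14 were past 2-fold lower in both libraries and 0 higher. *Klra8* (Ly49H), which recognizes a cytomegalovirus protein, had 1 UMI in the vehicle γδT cells against 332 in NK cells and 0 against 89 in the antibiotic library, at least 61.6-fold lower there against the floor of 3 counts. *Klra4* had 7 UMIs against 405 and 1 against 105. *Eomes*, a transcription factor of conventional NK cells that was chosen for mention after its values had been seen, was found in 3 of 194 and 0 of 138 thinned γδT cells and in 32 of 160 and 12 of 83 thinned NK cells. *Zeb2*, a regulator of late NK maturation, had 7 UMIs against 131 and 1 against 39. These genes of conventional NK cells were therefore nearly absent from the γδT cells, although *Tyrobp* and *Fcer1g* were present.

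The shared genes were lower in γδT than in NK cells when summed over all members. *Gzma* was 0.136-fold and 0.0460-fold, *Tyrobp* 0.269-fold and 0.0897-fold, and *Fcer1g* 0.379-fold and 0.137-fold the NK level. *Klrk1* was 0.422-fold and 0.430-fold, *Nkg7* 0.478-fold and 0.417-fold, and *Ccl5* 0.456-fold and 0.394-fold. *Gzmb* was nearer the NK level, at 0.868-fold [0.783 to 0.963] and 0.489-fold [0.377 to 0.636], and *Xcl1* was 1.35-fold [1.21 to 1.51] and 1.02-fold [0.801 to 1.31]. Genes of T cells were higher. *Bcl11b*, the factor that holds T cell identity, was 6.42-fold and 9.14-fold higher, *Thy1* 4.50-fold and 5.13-fold, *Il7r* 5.23-fold and 3.50-fold, and *Cxcr6* 4.45-fold and 2.99-fold. *Ikzf2* (Helios) was 3.72-fold and 2.44-fold and *Ly6a* (Sca-1) 12.3-fold and 26.5-fold higher, the latter against 16 and 2 UMIs in NK cells. *Cd7* was 1.10-fold [1.01 to 1.20] the NK level in the vehicle library and 0.498-fold [0.425 to 0.584] in the antibiotic library, and 0.906-fold in the vehicle library when only cells with at least 2500 UMIs were used.

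*Tcrg-C4* differed from the other γ constant genes in NK cells. NK cells held 74 UMIs of it in the vehicle and 23 in the antibiotic library, against 7 and 3 of *Tcrg-C1* and 2 and 1 of *Tcrg-C2*. *Tcrg-C4* was 3.42-fold [2.66 to 4.45] and 3.85-fold [2.49 to 6.23] higher in γδT cells, *Tcrg-C1* 33.3-fold [16.0 to 83.4] and 27.4-fold [9.23 to 134], and *Tcrg-C2* 121-fold [33.3 to 1004] and 74.6-fold [13.2 to 2965]. The intervals of *Tcrg-C4* lay below those of the other 2 genes in both libraries. B cell genes were also higher in γδT than in NK cells (5 of 6 past 2-fold in both libraries), and the NK rule left out cells with *Cd79a* or *Cd79b*.

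Antibiotic and vehicle γδT cells were compared next. Among 4374 genes with at least 30 UMIs in both together, 80 (1.83%) were at least 2-fold higher in the antibiotic library and 174 (3.98%) at least 2-fold lower, with a median log2 ratio of -0.03. At any size of ratio, 2031 of the 4374 genes were higher and 2343 lower, the background for the list counts below. Killing genes, NK receptors and their adaptors, stress genes and interferon-induced genes were among the lower ones. *Il7r*, *Socs2* and *Klrb1c* were among the higher ones. The αβT cells of the same 2 libraries also differed between the libraries, and their ratios are given beside those of γδT cells for the genes the comparison turns on.

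The granule proteases were the lowest in ratio among the killing genes. *Gzma* had 1704 CPM in the vehicle and 374 CPM in the antibiotic library, a ratio of 0.220 [0.185 to 0.259], and *Gzmb* 1165 and 283 CPM, a ratio of 0.243 [0.199 to 0.294]. *Nkg7*, a granule membrane protein, had a ratio of 0.663 and *Ctsw* of 0.594, against 0.760 and 0.730 in αβT cells. Of 13 measured granule and killing genes, 3 were higher and 10 lower in the antibiotic library, with 1 and 2 of them past 2-fold and a median ratio of 0.720. The gene past 2-fold higher was *Rab27a*. In αβT cells the ratio was 0.286 [0.267 to 0.306] for *Gzma* and 0.237 for *Gzmb*. The interval of *Gzma* thus lay below that of αβT cells, and that of *Gzmb* overlapped it. These intervals treat UMIs as independent, while 3 cells held 53.1% of the *Gzma* UMIs of antibiotic γδT cells. By the share of thinned cells with *Gzma*, the ratio was 0.331 [0.161 to 0.629] in γδT and 0.349 [0.278 to 0.437] in αβT cells. The shares of cells therefore did not set the classes apart. The plot of antibiotic against vehicle ratios sets both classes side by side.

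**Figure D3:**
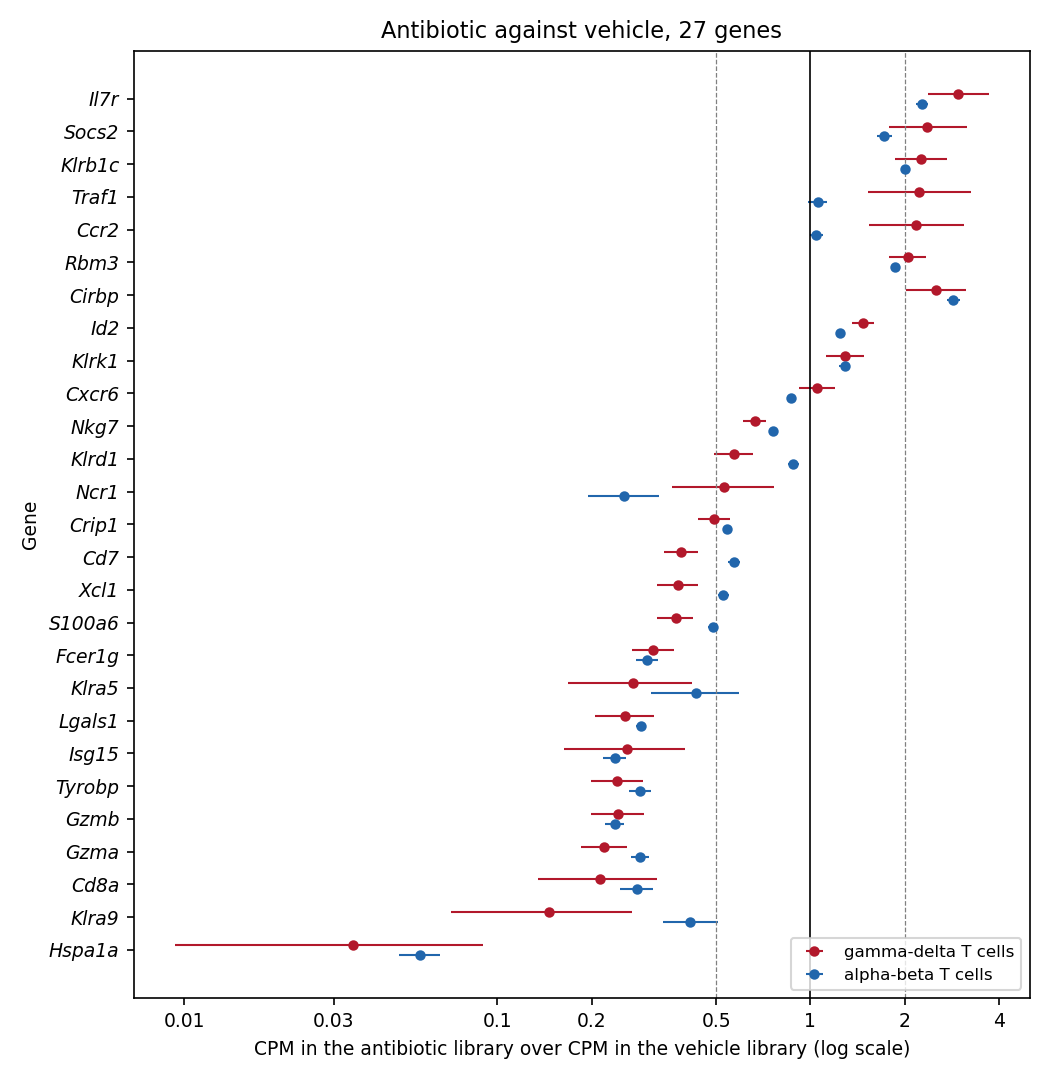
Ratio of CPM in the antibiotic library over CPM in the vehicle library (x axis, log scale) for 27 genes in γδT cells and αβT cells, with 95% intervals from counting error. Dashed lines mark 2-fold. *Il7r* (2.96) was highest and *Hspa1a* (0.0345) lowest among the plotted genes in γδT cells, and *Ccr2* and *Traf1* were near 1 in αβT cells.

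NK receptors and adaptors were mostly lower in the antibiotic library. Of 18 measured genes of the list, 14 were lower and 7 of these past 2-fold, 4 were higher and 1 past 2-fold, and the median ratio was 0.586. *Tyrobp* had 1199 CPM in the vehicle and 290 CPM in the antibiotic library (ratio 0.242 [0.199 to 0.292]). *Fcer1g* had 1506 and 475 CPM (0.315 [0.270 to 0.366]), and *Klra9* 176 and 25.7 CPM (0.146 [0.0712 to 0.270]). *Klra5* had 207 and 56.2 CPM (0.271 [0.168 to 0.418]), *Cd244* 127 and 32.8 CPM (0.257), and *Cd7* 1968 and 760 CPM (0.386 [0.341 to 0.436]). In αβT cells the ratio was 0.286 for *Tyrobp*, 0.301 for *Fcer1g*, 0.414 for *Klra9*, 0.431 for *Klra5*, 0.321 for *Cd244* and 0.569 for *Cd7*, so that these genes were lower in the antibiotic library in both classes. The receptors did not all move together. *Ncr1* had a ratio of 0.530 [0.361 to 0.765] and *Klrd1* of 0.571, *Hcst*, the adaptor DAP10 of NKG2D, of 1.07 [0.957 to 1.19], and *Klrk1* of 1.29 [1.12 to 1.48], against 0.254, 0.882, 1.03 and 1.29 in αβT cells. *Klrb1c* (NK1.1) was 2.25-fold [1.87 to 2.72] higher, with 271 and 611 CPM, against 2.01-fold in αβT cells.

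*Cd8a* had 275 CPM in the vehicle and 58.5 CPM in the antibiotic γδT cells, a ratio of 0.213 [0.134 to 0.323], against 0.278 in αβT cells. Among the receptor chains, *Tcrg-C1* had a ratio of 0.834, *Tcrg-C2* of 0.727 and *Tcrg-C4* of 0.825. *Trdc* (0.784) and *Cd3g* (0.579 [0.526 to 0.637]) were used by the rule, and their ratios are a description. *Trbc1* had a ratio of 1.31 [1.13 to 1.52] and *Trbc2* of 0.852.

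Among secreted factors, *Xcl1* had 1324 and 501 CPM, a ratio of 0.378 [0.325 to 0.439], against 0.527 [0.505 to 0.550] in αβT cells. *Ccl5*, a chemokine for T cells and monocytes, had 12407 and 9014 CPM, a ratio of 0.727 [0.700 to 0.754]. In αβT cells *Ccl5* had a ratio of 1.06, on the other side of 1.

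Genes of cell shape and activation were lower as a group. Of 18 measured genes of S100 proteins, galectins and the cytoskeleton, 17 were lower and 6 of these past 2-fold, and 1 was higher. *Lgals1* (galectin-1) had 908 and 232 CPM (0.255 [0.205 to 0.316]), *S100a6* 1760 and 653 CPM (0.371 [0.325 to 0.422]), and *Crip1* 1818 and 896 CPM (0.493). *Vim* had a ratio of 0.325. In αβT cells the ratios were 0.287, 0.489, 0.542 and 0.446. These genes are commonly higher in effector than in resting T cells. *Tmsb4x*, which binds actin, had a ratio of 0.657, against 0.667 in αβT cells.

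Stress and interferon genes were lower in the antibiotic library as well. *Hspa1a*, the inducible heat shock protein, had 200 UMIs in vehicle and 4 in antibiotic γδT cells (0.0345 [0.00932 to 0.0898]), and *Hspa1b* 62 and 1. *Fos* had a ratio of 0.451 and *Jun* of 0.457. In αβT cells the ratio was 0.0567 for *Hspa1a*, 0.336 for *Fos* and 0.423 for *Jun*. Such genes are also induced by tissue dissociation, and a difference in handling between the libraries was not tested. Of 19 measured genes of this list, 15 were lower and 5 of these past 2-fold. Of 21 measured interferon-induced genes, 20 were lower and 7 of these past 2-fold, with *Isg15* at 0.260 [0.164 to 0.398] and *Ifit1* at 0.228 [0.0875 to 0.503], against 0.237 and 0.337 in αβT cells. In the vehicle library 3 cells held 32.5% of the *Isg15* UMIs and 49.1% of those of *Ifit1*. Of 15 MHC class I genes 13 were lower, with 1 past 2-fold, *H2-T23* (Qa-1, the ligand of NKG2A) at 0.444 [0.314 to 0.617] against 0.667 in αβT cells.

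The receptor of IL-7 and genes of survival were higher. *Il7r* had 172 CPM in the vehicle and 510 CPM in the antibiotic γδT cells, a ratio of 2.96 [2.37 to 3.72], against 2.28 [2.18 to 2.38] in αβT cells. *Socs2*, a feedback inhibitor of cytokine signaling, was 2.36-fold [1.78 to 3.15] higher, *Bcl2*, which blocks cell death, 1.60-fold [1.35 to 1.89] and *Il2rb*, a chain of the IL-15 receptor, 1.29-fold [1.05 to 1.58]. In αβT cells they were 1.72-fold, 1.52-fold and 1.17-fold higher. Of 15 measured genes of the list of cytokine receptors and survival, which holds *Socs2* and *Bcl2* but neither *Il7r* nor *Il2rb*, 11 were higher and 4 lower, and *Socs2* was the gene past 2-fold. *Ccr2*, a chemokine receptor of inflammatory cells and of IL-17-producing γδT cells, was 2.17-fold [1.54 to 3.08] higher against 1.04-fold [0.996 to 1.09] in αβT cells. *Traf1* was 2.23-fold [1.53 to 3.26] against 1.05-fold. *Gm12840* was 4.51-fold [2.57 to 8.25] against 1.08-fold. The intervals of these 3 genes did not overlap between the classes. *Cirbp* and *Rbm3*, RNA-binding proteins of the cold and stress response, were 2.51-fold and 2.05-fold higher, against 2.86-fold and 1.86-fold in αβT cells.

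The IL-17 cytokines themselves were not seen. *Il17a* and *Il17f* had no UMI in the 194 and 138 members at full depth. A count of 0 allows a share of cells with a UMI of up to 1.88% in the vehicle and 2.64% in the antibiotic library (Clopper-Pearson). Of the 8 measured genes of the type 17 list, 6 were higher and 2 lower in the antibiotic library. *Tmem176b* was 1.88-fold higher and *Tmem176a* 1.51-fold, and *Cd163l1*, a scavenger receptor of IL-17-producing γδT cells, had 33 and 8 UMIs, of which 3 cells held 81.8% and 100%. At full depth, UMIs from 2 or more of 13 type 17 genes were seen in 30 of 194 members (15.5%) and 29 of 138 (21.0%), and without *Tmem176a* and *Tmem176b* in 7 and 2. In αβT cells the former shares were 10.6% and 15.2%, and in B cells 4.64% and 3.36%.

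The B cell genes moved with this comparison, with 11 of 11 measured genes lower in the antibiotic library and 6 past 2-fold, and 3 cells held 80.7% of the *Cd74* UMIs of antibiotic members. Without the members scored as doublets, at score limits that differed between the libraries, *Cd74* (1.28) and *Cd79a* (1.31) were higher in the antibiotic library. Without the members with B cell transcripts, *Gzma* had a ratio of 0.218, *Tyrobp* of 0.227 and *Il7r* of 2.98, as large as with them. The counts of genes past 2-fold were then 66 higher and 139 lower of 3905. Of the other marker lists, myeloid genes summed to 261 and 154 CPM, hepatocyte genes to 111 and 39.8 CPM, endothelial genes to 29.8 and 32.8 CPM, and erythroid and platelet genes to 66.4 and 7.02 CPM. Their part in the results was not tested. The remaining lists were mixed. Of the measured genes, 7 of 16 were higher in CD3 and receptor signaling, 6 of 17 in the type 1 program, 4 of 10 in tissue residency, 7 of 16 in recirculation, 5 of 9 in innate-like regulators, 5 of 8 in the NF-kB list, 2 of 8 in checkpoints and 1 of 5 in the cell cycle, and 5 of 6 in the glucocorticoid and stress list, where *Cirbp* and *Rbm3* were past 2-fold. Of the 6 measured genes of NK cells and innate lymphoid cells 4 were lower.

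*Gzma* divided the γδT cells, and its share differed between the libraries. At 1500 UMIs per cell it was seen in 51 of 194 vehicle members (26.3% [20.2 to 33.1]) and in 12 of 138 antibiotic members (8.70% [4.57 to 14.7]), a ratio of 0.331 [0.161 to 0.629]. At full depth the counts were 63 (32.5%) and 17 (12.3%). In αβT cells the thinned shares were 7.18% and 2.51%, a ratio of 0.349 [0.278 to 0.437], and in NK cells 86.9% and 69.9%. B cells, which do not make granzyme A, gave a background of 6.50% and 1.91% (11.2% and 2.54% at full depth). The share in members lay above this background in both libraries, and the background was itself lower in the antibiotic library.

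The number of *Gzma* UMIs per positive cell also differed from the background. Positive vehicle members had a median of 14 UMIs and a highest value of 82, and 18 of the 63 held exactly 1. Positive antibiotic members had a median of 3 and a highest value of 46, and 7 of the 17 held exactly 1. Of the 265 vehicle B cells with *Gzma*, 230 held exactly 1, while 11 held 10 or more, with a highest value of 127. At 2 or more UMIs the full-depth shares were 23.2% and 7.25% in members and 1.48% and 0.182% in B cells. Of the antibiotic *Gzma* UMIs of members 53.1% came from 3 cells, against 17.5% in the vehicle library, as the plot of single cells shows.

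**Figure D4:**
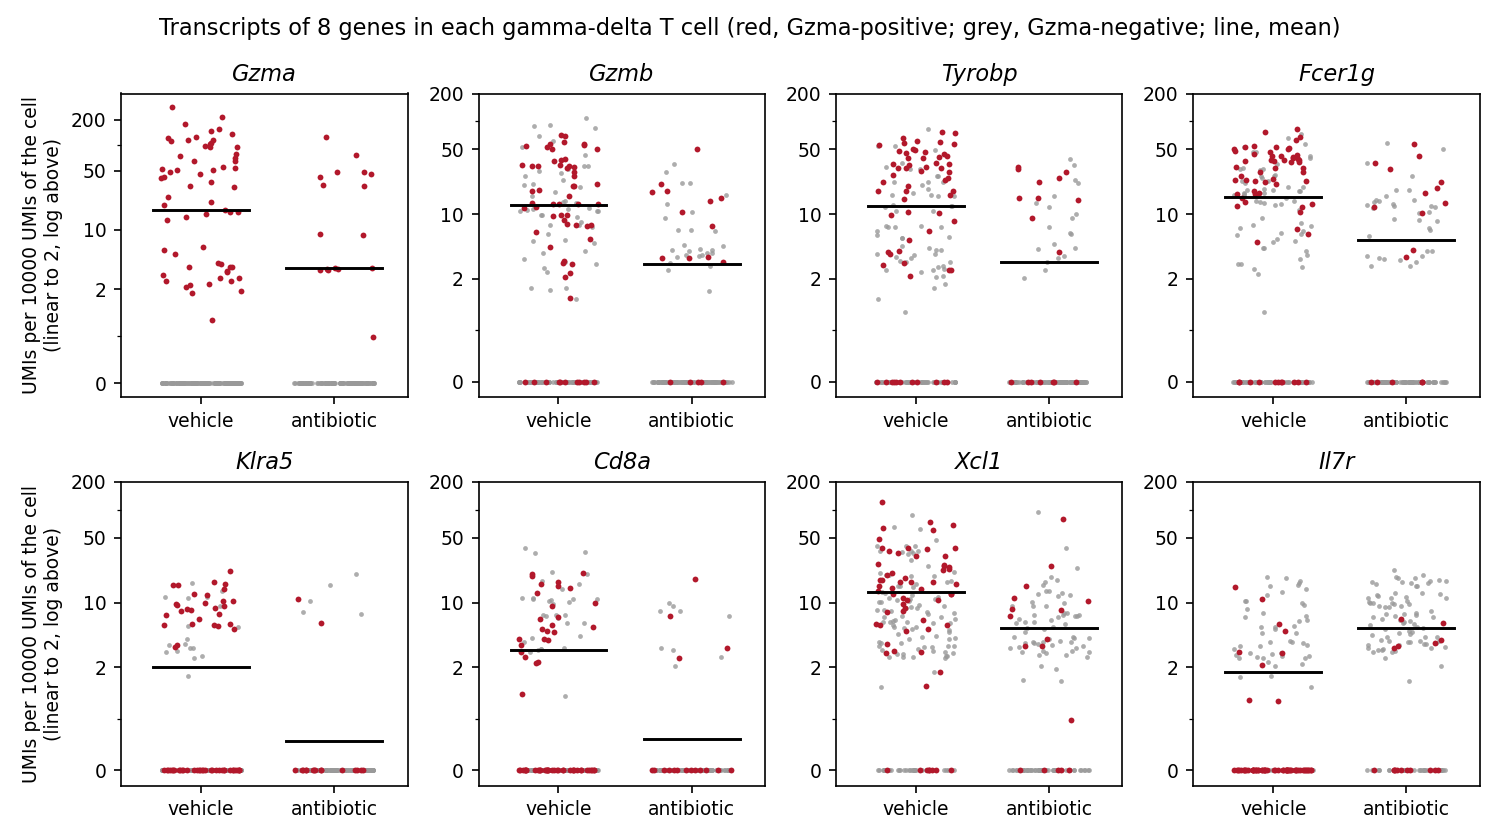
UMIs of 8 genes in each γδT cell, per 10000 UMIs of the cell (y axis, linear to 2 and logarithmic above), by library. Red points are cells with *Gzma*, grey points cells without it, and lines are means over cells. In the vehicle library 63 of 194 cells were red and in the antibiotic library 17 of 138, and *Tyrobp*, *Gzmb* and *Klra5* were seen in grey cells too.

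Cells with and without *Gzma* were then compared within each library, with 63 against 131 vehicle cells and 17 against 121 antibiotic cells. The depths of the classes were close, with medians of 3577 and 3614 UMIs in the vehicle and 2978 and 2961 UMIs in the antibiotic library. Among 1880 genes with at least 30 UMIs in both classes together in each library, 7 (0.372%) were at least 2-fold higher in *Gzma*-positive cells in both libraries and 11 (0.585%) at least 2-fold lower. In the vehicle library by itself 0.957% were past 2-fold higher and 1.44% lower, and in the antibiotic library, with its 17 positive cells, 3.14% and 8.78%. NK receptors and adaptors were higher in *Gzma*-positive cells in 12 of 12 measured genes in both libraries, with 3 past 2-fold in both and medians of 1.66-fold and 1.79-fold. Over all 1880 genes, 865 were higher in *Gzma*-positive cells in the vehicle and 843 in the antibiotic library.

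*Ncr1* had 366 CPM in *Gzma*-positive and 73.5 CPM in *Gzma*-negative vehicle cells (4.98-fold [3.35 to 7.55]), and 390 and 43.4 CPM in the antibiotic library (8.98-fold [4.54 to 18.2]). It was seen in 34 of 63 positive and 19 of 131 negative vehicle cells at full depth, and in 6 of 17 and 8 of 121 antibiotic cells. *Tyrobp* was 4.19-fold [3.63 to 4.85] and 5.86-fold [4.05 to 8.46] higher, and *Fcer1g* 3.03-fold and 3.98-fold. *Gzmb* was 2.38-fold [2.07 to 2.72] and 5.21-fold [3.57 to 7.56] higher. The second granzyme therefore went with the first. *Ccl4* was 4.76-fold and 2.26-fold higher, *Xcl1* 2.19-fold and 2.27-fold, *Klre1* 2.01-fold and 2.32-fold, *Ccl5* 1.91-fold and 2.23-fold, and *Cd7* 1.97-fold and 3.51-fold. In the antibiotic library a single *Gzma*-positive cell held 27 *Xcl1* and 10 *Ncr1* UMIs. No other positive cell there held more than 7 and 4. The antibiotic ratio of *Xcl1* thus rests in large part on that cell. *Klra5*, chosen for mention after its values had been seen, was found in 29 of 63 positive and 18 of 131 negative vehicle cells and in 2 of 17 and 5 of 121 antibiotic cells.

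**Figure D5:**
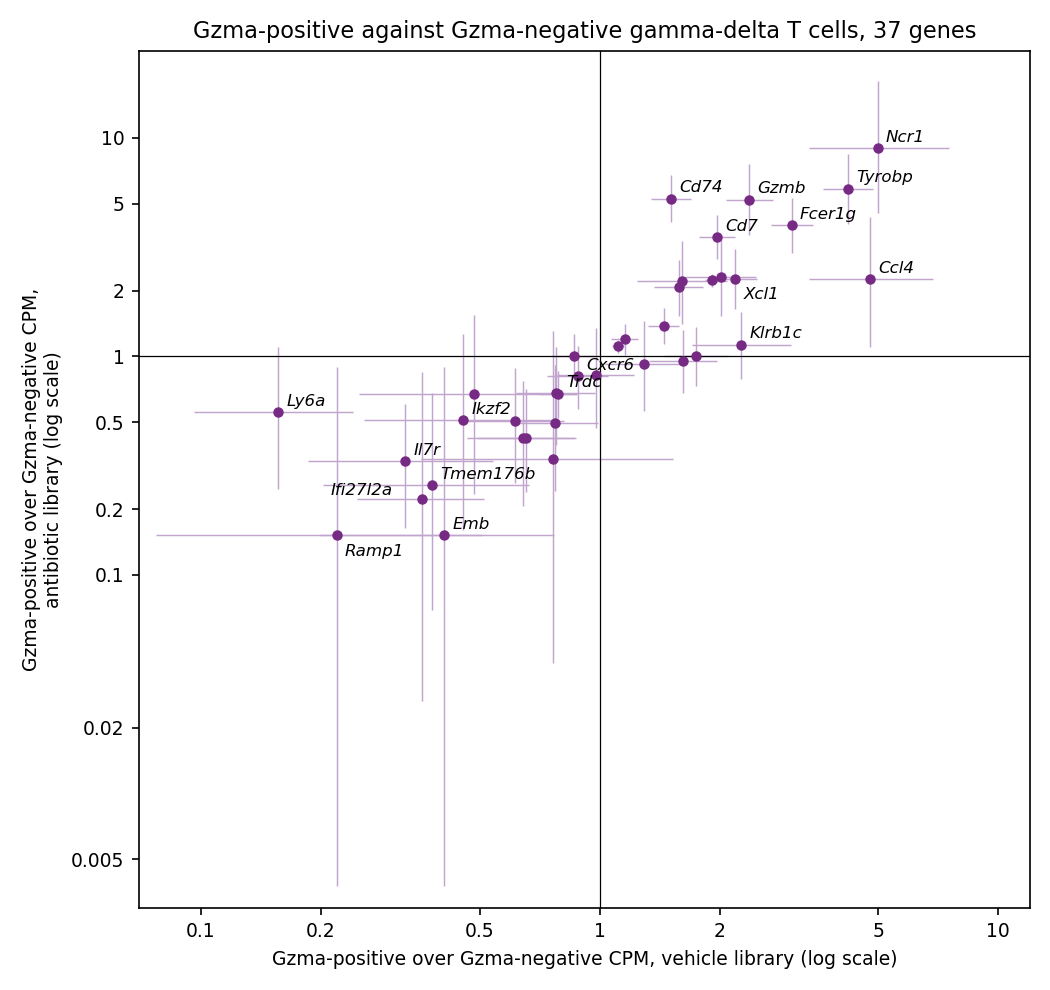
Ratio of CPM in *Gzma*-positive over *Gzma*-negative γδT cells for 37 genes in the vehicle library (x axis) and the antibiotic library (y axis), both on log scales, with 95% intervals from counting error. *Ncr1* and *Tyrobp* lay at the upper right (4.98 and 8.98; 4.19 and 5.86) and *Ramp1* and *Il7r* at the lower left (0.219 and 0.152; 0.325 and 0.332), while *Cd74* differed between the libraries (1.51 and 5.26).

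*Gzma*-negative cells were higher in genes of the IL-7 receptor and of the type 17 list. *Il7r* had 72.4 CPM in positive and 223 CPM in negative vehicle cells (0.325-fold [0.186 to 0.539]) and 186 and 562 CPM in the antibiotic library (0.332-fold [0.163 to 0.606]). *Tmem176b* was 0.379-fold and 0.258-fold, and *Ramp1*, a receptor subunit for the neuropeptide CGRP, 0.219-fold and 0.152-fold, the latter on 1 UMI in positive cells. All 5 measured genes of the type 17 list were lower in positive cells in both libraries, with 2 past 2-fold in both. *Ifi27l2a* was 0.359-fold and 0.223-fold and *Emb* 0.408-fold and 0.152-fold. *Ly6a* was 0.156-fold [0.0962 to 0.241] in the vehicle and 0.557-fold [0.247 to 1.10] in the antibiotic library, so that a difference was not detectable in the latter.

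The receptor chains differed little between the *Gzma* classes. *Trdc*, which the rule used, was 0.784-fold and 0.675-fold, *Tcrg-C1* 1.29-fold and 0.922-fold, *Tcrg-C2* 0.977-fold and 0.821-fold, and *Tcrg-C4* 0.778-fold and 0.677-fold. None of these 3 γ constant genes was seen in 3 of 63 positive and 0 of 131 negative vehicle cells. In the antibiotic library the counts were 0 of 17 and 11 of 121. *Cxcr6* was 0.883-fold [0.739 to 1.05] and 0.810-fold [0.573 to 1.12]. *Klrb1c* was 2.27-fold [1.70 to 3.03] higher in positive cells in the vehicle library and 1.13-fold [0.786 to 1.59] in the antibiotic library. B cell genes moved with the classes, with 8 of 8 measured genes higher in *Gzma*-positive cells in both libraries and 8 past 2-fold in the antibiotic library. The B cell genes summed to 6194 and 4149 CPM in the vehicle and 8443 and 1634 CPM in the antibiotic library. Without the members with B cell transcripts, *Ncr1* was 6.55-fold and 11.2-fold higher and *Tyrobp* 4.17-fold and 6.80-fold, while *Cd74* turned to 0.811-fold in the vehicle library.

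*Gzma*-negative members alone, compared once the data had been seen, also differed between the libraries. Of 3559 measured genes, 65 were at least 2-fold higher and 135 at least 2-fold lower in the antibiotic library. *Gzmb* had a ratio of 0.225 [0.171 to 0.293], *Tyrobp* of 0.301 [0.225 to 0.396], *Fcer1g* of 0.376 [0.306 to 0.460] and *Cd8a* of 0.169 [0.0936 to 0.285]. *Il7r* was 2.52-fold [1.99 to 3.21] and *Klrb1c* 3.16-fold [2.47 to 4.07] higher. The differences between the libraries were therefore also measured among cells without *Gzma*. *Klra5* had a ratio of 0.570 [0.309 to 1.01] there, against 0.271 over all members.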

How the data were processed

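The processed files hold raw UMI counts per gene and barcode. The authors made these counts from 3′ libraries with bcl2fastq and Cell Ranger on mm10 and deposited them without normalization, as 28692 genes by 737280 barcodes for each of the 2 libraries, with total counts of 41474311 (vehicle) and 29811401 (antibiotic). Versions are not stated in the sources used here. Cells were called by at least 1500 UMIs and under 10% mitochondrial UMIs, without a change for doublets or free RNA. Classes were assigned by UMIs of receptor and lineage genes. The members and the gene lists were chosen with earlier results of these data known.

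Counts were summed over the cells of a class in each library and scaled to CPM. Genes with at least 30 UMIs in both classes together were measured, and a gene was past 2-fold at a ratio of 2 or more or its inverse. No test was run, since each condition is 1 library. Shares were compared after thinning cells to 1500 UMIs. The genes named were, for each comparison, up to 5 of each list by level, any list member past 2-fold with an interval off 1, and 10 higher and 10 lower genes outside the lists by the interval bound nearest 1, with at least 100 CPM in the higher class; receptor chains and the genes of the rule were always described. *Tcrg-V1*, *Tcrg-V2* and *Itgam* were not analysed here. Sequences came from GENCODE vM21 on GRCm38. Doublets were scored with Scrublet in scanpy 1.11.5 (expected share 6%). Intervals came from scipy 1.17.1 under Python 3.11.15, tables from pandas 2.3.3 and numpy 2.4.6, and plots from matplotlib 3.10.9. The ratio code was tested on simulated data. Alternatives were other limits on UMIs, *Trdc* and genes, thinning, other scaling, and the removal of doublets or of members with B cell or β chain transcripts.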

Additional observations from a re-analysis of the deposited data

Results flagged for a closer look

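Barcodes below the UMI limit were not used in any comparison. Of those with at least 500 and under 1500 UMIs, 3 of 432 in the vehicle and 4 of 228 in the antibiotic library passed the receptor part of the rule for γδT cells.

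*Cd7*, a surface receptor of T and NK cells, lay on opposite sides of 1 in the libraries when γδT cells were set against NK cells. The ratio was 1.10 [1.01 to 1.20] in the vehicle and 0.498 [0.425 to 0.584] in the antibiotic library. The difference between the libraries was not tested.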

How the results depend on the processing

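No paired analysis was possible because each condition is 1 library, and for the same reason no replicate could be left out. Of 3719 values of 338 named ratios under the alternatives, 3442 stayed within the counting interval of the reported value, 266 left it and 11 reversed. The cause of these moves was not tested, except that fewer or more genes are measured under another gene minimum and fewer cells are kept under stricter rules.

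When only members without a *Trbc1* or *Trbc2* UMI were kept (6 and 12 cells), the ratio of the share of γδT cells was 2.55 and that of the share with *Gzma* was 0 (3 of 6 against 0 of 12). The genes past 2-fold were then 6 higher and 14 lower of only 220 measured between libraries. They were 353 and 3665 of 9755 against αβT cells, and 7 and 83 of 1097 against NK cells. *Gzma* classes could not be compared. The vehicle ratios of *Bcl2a1b* to αβT cells (1.36) and of *Klrd1* (1.16), *Ccl5* (1.04) and *Cd7* (0.753) to NK cells reversed. Of all CD3-positive cells, the ratio of the share was 0.692. With at least 2500 UMIs per cell, 7 of 1566 measured genes were lower in *Gzma*-positive cells and 31 of 2124 against NK cells. *Cd7* to NK cells then reversed in the vehicle library (0.906). With at least 3 *Trdc* UMIs, 3 of 1508 measured genes were higher in *Gzma*-positive cells. Thinning gave 43 higher and 90 lower of 2203 genes between libraries, 3 and 6 of 847 between *Gzma* classes, and 20 higher of 1494 against NK cells. A minimum of 10 UMIs per gene gave 420 and 615 of 7475 between libraries and 34 and 70 of 4628 between *Gzma* classes. It gave 274 and 563 of 11128 against αβT cells, and 138 and 150 of 5906 against NK cells. A minimum of 60 gave 19 and 65 of 2516 between libraries and 3 lower of 875 between *Gzma* classes. It gave 96 and 112 of 8882 against αβT cells, and 18 and 34 of 1387 against NK cells. At 2 or more *Gzma* UMIs against none, 11 and 18 of 1750 genes were past 2-fold. With at least 10 UMIs expected in the smaller class, a choice made after the data had been seen, 3 of 701 genes were lower between *Gzma* classes. Against αβT cells 25 and 18 of 4307 were then past 2-fold.

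B cell genes reversed most. Without Scrublet doublets, whose score limit differed between the libraries, *Cd74* (1.28) and *Cd79a* (1.31) were higher in the antibiotic library. *Cd74* was then lower in *Gzma*-positive cells (0.813 vehicle, 0.363 antibiotic). *Cd74* was also lower in them in the vehicle library without members with B cell transcripts (0.811) and in the antibiotic library at 2 or more *Gzma* UMIs (0.565). The *Gzma* classes of the antibiotic library rest on 17 positive cells with 58985 UMIs in all.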
